A study of Mus musculus with 12 samples.

Results

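The genes described here are the nuclear genes for the subunits of the mitochondrial respiratory chain and of ATP synthase in mouse thymus, with the assembly factors of complex I that carry the same symbol prefix. They were the genes whose symbol begins with Nduf, Uqcr, Cox4 to Cox8 or Atp5, or is Sdha, Sdhb, Sdhc, Sdhd or Cycs, which gave 90 genes of the 19309 that could be tested. Each gene was read through 1 probe set, the one with the highest mean over the 12 arrays. The 90 genes comprise 6 core subunits, 30 accessory subunits and 7 assembly factors of complex I, 4 subunits of complex II, 8 of complex III, somatic cytochrome c, 17 genes of complex IV and 17 of ATP synthase (complex V). Ndufa4 is counted here with complex I by its symbol, although it is now assigned to complex IV, and Cox7a2l, counted with complex IV, acts in joining complexes III and IV. None of the 13 mitochondrially encoded subunits was in the table, so the proteins made inside the organelle were not analysed here.

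Total RNA from thymus of FVB/N mice was hybridised to single-channel arrays in 3 groups. Normal thymocytes (n = 3) came from wild-type mice whose age is labelled 24 dpn. Control tumors (n = 5) are MYC-driven T-cell lymphomas with a wild-type genotype label, and Dnmt3a-deficient tumors (n = 4) are lymphomas that arose with MYC after deletion of Dnmt3a, a de novo DNA methyltransferase, in the blood-forming compartment. Both tumor groups were taken at the terminal stage, so the tumors differ from normal thymocytes in age as well as in MYC and malignancy. The labels do not say which promoter drives MYC or the deletion, nor whether each array is a separate animal, and p-values measure only the spread between these arrays. Dnmt3a itself measured 9.48 ± 0.15 (log2, SD, n = 3) in normal thymocytes, 8.67 ± 0.53 (n = 5) in control tumors and 7.42 ± 0.20 (n = 4) in deficient tumors.

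The respiratory chain passes electrons from NADH through complex I, or from succinate through complex II, to ubiquinone. Complex III passes them on to cytochrome c, and complex IV hands them to oxygen. Complexes I, III and IV pump protons, and ATP synthase uses the returning protons to make ATP. Thymocytes that divide and T-cell lymphomas use the chain for energy and for recycling the cofactors that nucleotide and aspartate synthesis need, and cytochrome c released from mitochondria also starts caspase activation in apoptosis. Nuclear respiratory factor 1 (NRF1) and the ETS factor GABP are known activators of many of these genes, and MYC binds the letters CACGTG, called the E-box.

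To show which of these letters stand upstream of genes that moved in opposite directions, the 250 bases before the start of 5 members are printed 5′ to 3′ from the RefSeq promoter table of GRCm38.p6. Cycs, Ndufaf4, Sdhb and Atp5g1 were higher and Cox6a1 was lower in Dnmt3a-deficient tumors than in normal thymocytes. The 5 were picked by hand and do not stand for the members as a whole. Capitals mark matches on either strand to GCATGCGC (the NRF1 letters), CCGGAAG (ETS), CACGTG (E-box) or CCAAT, a set of motifs chosen with the sequences in view. The sequences are from chr6:50566570-50566819 on the minus strand, chr4:24897833-24898082 on the plus strand, chr4:140961021-140961270 on the plus strand, chr11:96075632-96075881 on the minus strand and chr5:115348959-115349208 on the minus strand.
Cycs: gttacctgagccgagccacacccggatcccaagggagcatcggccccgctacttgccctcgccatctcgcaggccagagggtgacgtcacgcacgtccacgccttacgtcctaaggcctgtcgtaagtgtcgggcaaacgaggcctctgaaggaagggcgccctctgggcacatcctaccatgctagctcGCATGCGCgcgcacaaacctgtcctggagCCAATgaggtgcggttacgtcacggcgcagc
Ndufaf4: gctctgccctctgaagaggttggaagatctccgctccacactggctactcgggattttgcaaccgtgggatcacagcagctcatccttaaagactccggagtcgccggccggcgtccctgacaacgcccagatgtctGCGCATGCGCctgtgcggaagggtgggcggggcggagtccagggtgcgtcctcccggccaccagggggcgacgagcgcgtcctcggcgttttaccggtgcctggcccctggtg
Sdhb: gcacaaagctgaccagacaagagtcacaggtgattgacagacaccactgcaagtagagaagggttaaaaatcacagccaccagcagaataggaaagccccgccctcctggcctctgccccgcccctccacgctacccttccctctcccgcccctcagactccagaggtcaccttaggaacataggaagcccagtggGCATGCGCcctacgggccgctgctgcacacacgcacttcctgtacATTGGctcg
Atp5g1: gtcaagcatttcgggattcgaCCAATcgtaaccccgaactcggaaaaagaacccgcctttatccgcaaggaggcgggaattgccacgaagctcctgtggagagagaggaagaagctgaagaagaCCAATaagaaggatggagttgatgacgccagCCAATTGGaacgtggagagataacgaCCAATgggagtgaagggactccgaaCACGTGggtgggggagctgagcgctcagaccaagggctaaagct
Cox6a1: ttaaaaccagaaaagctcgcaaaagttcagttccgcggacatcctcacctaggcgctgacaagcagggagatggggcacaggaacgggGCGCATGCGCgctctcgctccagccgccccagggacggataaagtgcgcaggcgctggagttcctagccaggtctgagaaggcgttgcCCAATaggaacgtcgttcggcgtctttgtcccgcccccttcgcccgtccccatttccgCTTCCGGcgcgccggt

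The NRF1 letters stood 60 bases before the start in Cycs, 111 in Ndufaf4, 54 in Sdhb and 160 in Cox6a1, and were not in the Atp5g1 window. In Ndufaf4 and Cox6a1 the letters overlap their own reverse complement, so each is matched on both strands. Atp5g1 was the only one of the 5 with an E-box, 44 bases before its start, and it held 5 CCAAT matches, of which a pair overlap. Of the 90 members, 74 had an entry, and 10 of these (13.5%) held the NRF1 letters, against 5.52% of the brighter 50% of tested genes and 2.56% of all 27025 genes in the promoter table. The ETS letters were in 17.6% of members and 17.5% of the brighter genes, and the E-box in 8.11% and 10.5%. By direction in deficient tumors against normal thymocytes, the NRF1 letters were in 4 of 26 members that were higher, 1 of 9 that were lower and 5 of 39 that were not called. The ETS letters were in 5 of 26 (19.2%), 4 of 9 (44.4%) and 4 of 39 (10.3%) of these, and the E-box in 3, 0 and 3. CCAAT was in 44.6% of members, against 40.5% of the brighter genes and 37.5% of all genes in the promoter table, and by direction in 12 of 26 (46.2%), 7 of 9 (77.8%) and 14 of 39 (35.9%). No test was made of these shares. A match is a description of the letters and shows no binding.

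The arrays did not share one intensity distribution, and this bears on every result that follows. The upper quartile of all probe sets was 8.50 to 8.60 in the 4 deficient tumors, and 8.54 and 8.51 in control tumors 1 and 2. It was 8.25 to 8.30 in control tumors 3, 4 and 5 and 8.13 to 8.21 in normal thymocytes. In the comparison of deficient tumors with normal thymocytes this property and the group cannot be told apart. The control tumors straddle it, so the counts and the leading genes of each control comparison are given with and without control tumors 1 and 2. The labels give no scan date or other batch. T-cell markers were present on all arrays (mean of 9 genes 11.29 to 11.38 in normal thymocytes, 10.45 to 10.75 in control and 9.62 to 10.58 in deficient tumors). Of these 9, 4 were called lower in control tumors and 6 in deficient tumors, against 11.3% and 19.0% of all genes. Cd3d was lower by 1.01 and 1.49 on the log2 scale (limma adjusted p = 0.00535 and 3.2e-04). Cd3e passed in neither (-0.67, adjusted p = 0.0875, and -0.15, adjusted p = 0.705). Adipocyte genes averaged 8.21 in control tumor 2 against 5.49 to 5.95 on the others, and neutrophil genes 8.03 and 7.90 in control tumors 3 and 4 against 5.42 to 6.90 on the others. Macrophage genes averaged 6.78 to 7.03 in normal thymocytes, 6.28 to 8.09 in control tumors (highest in control tumor 2) and 7.12 to 7.99 in deficient tumors. Of 10 measured, 1 was called higher in control tumors (Itgam, 1.22, adjusted p = 0.00157) and 2 in deficient tumors (Itgam, 0.86, adjusted p = 0.0129, and Adgre1, 0.86, adjusted p = 0.0220). C1qb, another of them, divided the control tumors, at 8.73 and 10.16 in 1 and 2 and 5.53 to 6.28 in 3 to 5, with 8.41 to 9.53 in deficient tumors and 6.80 to 7.30 in normal thymocytes. The part of these cells in the results was not tested.

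The first comparison asks what sets MYC-driven control tumors apart from normal thymocytes. Cytochrome c, Cox7b of complex IV, the core subunits Ndufs1 and Ndufv2, 3 complex I assembly factors and 3 complex III subunits were higher in control tumors, and most other members did not pass the test. By limma with Benjamini-Hochberg adjustment over all 19309 genes, 13 of 90 members (14.4%) were higher at an adjusted p under 0.05, against 13.0% of all genes, and 2 (2.22%) were lower, against 11.3%. Among the brighter 50% of genes, which hold 83 members, 19.3% of members and 26.7% of genes were higher, so the share of higher members was near or below the background. For lower, the shares there were 6.02% of members and 18.1% of genes. The groups did not overlap in 21 members that were higher, against 13.8% of all genes, and in 8 that were lower, against 14.0%. The median difference of members was 0.13 on the log2 scale, beside -0.08 over all genes. That median was -0.03 after a second quantile normalization and -0.06 after cyclic loess, and under each of these scalings 10 members were higher and 8 lower. That is 11.1% and 8.89% of members, against 11.6% and 14.7% of all genes after the quantile step and 12.3% and 11.2% after cyclic loess. In whole-tissue RNA, fewer cells of a type and less RNA per cell cannot be told apart.

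Cycs, the electron carrier between complexes III and IV, measured 9.42, 9.27 and 9.32 (log2) in normal thymocytes. The control tumors gave 11.69, 11.79, 10.76, 10.30 and 10.14, and the deficient tumors 12.09, 12.04, 12.19 and 12.16. The 3 groups do not overlap, control tumors 1 and 2 lie close to the deficient tumors, and control tumors 3 to 5 lie between. The control tumors were 3.04-fold above normal thymocytes (log2 difference 1.60, SE 0.33, limma adjusted p = 0.00287), and still 1.07 higher on the log2 scale without control tumors 1 and 2 (adjusted p = 4.9e-04).

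Cox7b, a small nuclear subunit of cytochrome c oxidase, showed the largest difference of any member. It was at 8.16, 8.32 and 8.20 in normal thymocytes, and at 11.32, 11.46, 9.74, 9.60 and 9.42 in control tumors. All 4 deficient tumors lay between 11.37 and 11.56. The control tumors exceeded normal thymocytes 4.23-fold (log2 2.08, SE 0.42, adjusted p = 0.00244), with 1.36 on the log2 scale when control tumors 1 and 2 were left out (adjusted p = 3.0e-05). Its second probe set gave 1.63.

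Complex I takes electrons from NADH on its core subunits, while assembly factors build it and leave. Ndufv2, an iron-sulfur core subunit, rose from 9.33, 8.99 and 9.22 to 10.49, 10.62, 9.81, 10.01 and 10.22 in control tumors, a log2 difference of 1.05 (SE 0.18, adjusted p = 8.3e-04). Ndufs1, the largest core subunit, rose by 0.92 (adjusted p = 0.00790). Its difference was 1.20 (adjusted p = 3.4e-04) without control tumors 1 and 2, and 0.48 (adjusted p = 0.0825) without control tumors 3 to 5. Ndufaf4, an early assembly factor, was 7.14, 7.16 and 6.91 in normal thymocytes and 8.07, 7.99, 8.41, 8.15 and 8.39 in control tumors. Its difference of 1.13 (SE 0.15, adjusted p = 1.0e-04) had the smallest adjusted p of all members, and in this gene control tumors 1 and 2 were the lowest of the 5. Ndufaf5, a hydroxylase of a core subunit, rose by 0.65 (adjusted p = 0.0127) and Ndufaf6 by 0.92 (adjusted p = 0.00578). Ndufaf5 lies among the dimmer 50% of genes, and RMA values do not show whether it is above background. Without control tumors 1 and 2 the differences were 0.83 for Ndufv2 (adjusted p = 0.00162), 1.25 for Ndufaf4 (adjusted p = 9.6e-05), 0.50 for Ndufaf5 (adjusted p = 0.0468) and 0.82 for Ndufaf6 (adjusted p = 0.0225). Of the 30 accessory subunits, which surround the core, only Ndufa5 rose (0.48, adjusted p = 0.0467) and only Ndufv3 fell (by 0.50, adjusted p = 0.0364), and these calls were lost when single arrays were left out in 7 and 6 of 8 cases.

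In complex II, Sdha, the flavoprotein that oxidises succinate, rose by 0.55 (adjusted p = 0.0144), while Sdhb (0.15), Sdhc (-0.26) and Sdhd (0.38) did not pass. The Sdha call was lost after a second quantile normalization (adjusted p = 0.0509) and after cyclic loess (adjusted p = 0.141). It was kept without control tumors 1 and 2 (0.67, adjusted p = 0.00508) and lost without 3, 4 and 5 (0.37, adjusted p = 0.109). In complex III, the core protein Uqcrc2 rose by 0.69 (adjusted p = 0.00152), Uqcrb by 0.81 (adjusted p = 0.00662) and the hinge protein Uqcrh by 0.78 (adjusted p = 0.0340). Uqcrc2 measured 10.84, 10.68 and 10.72 in normal thymocytes and 11.64, 11.57, 11.39, 11.27 and 11.34 in control tumors, with no overlap; control tumors 1 and 2 were the highest but close to the rest. Uqcrh missed the threshold without control tumors 1 and 2 (0.47, adjusted p = 0.117). In complex V only Atp5pb, the b subunit of the peripheral stalk, rose (0.78, adjusted p = 0.0106). In complex IV, Cox6b2, the testis isoform of a subunit on the intermembrane side, fell from 6.99, 7.04 and 7.15 to 6.67, 6.14, 5.97, 5.94 and 6.11 (by 0.89, adjusted p = 0.00181), and it too lies among the dimmer 50% of genes. Without control tumors 1 and 2, Uqcrc2 was 0.59 higher (adjusted p = 0.00503), Uqcrb 0.96 (adjusted p = 0.00362) and Atp5pb 0.95 (adjusted p = 0.00366), and Cox6b2 differed by -1.06 (adjusted p = 2.2e-04).

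**Figure D1:**
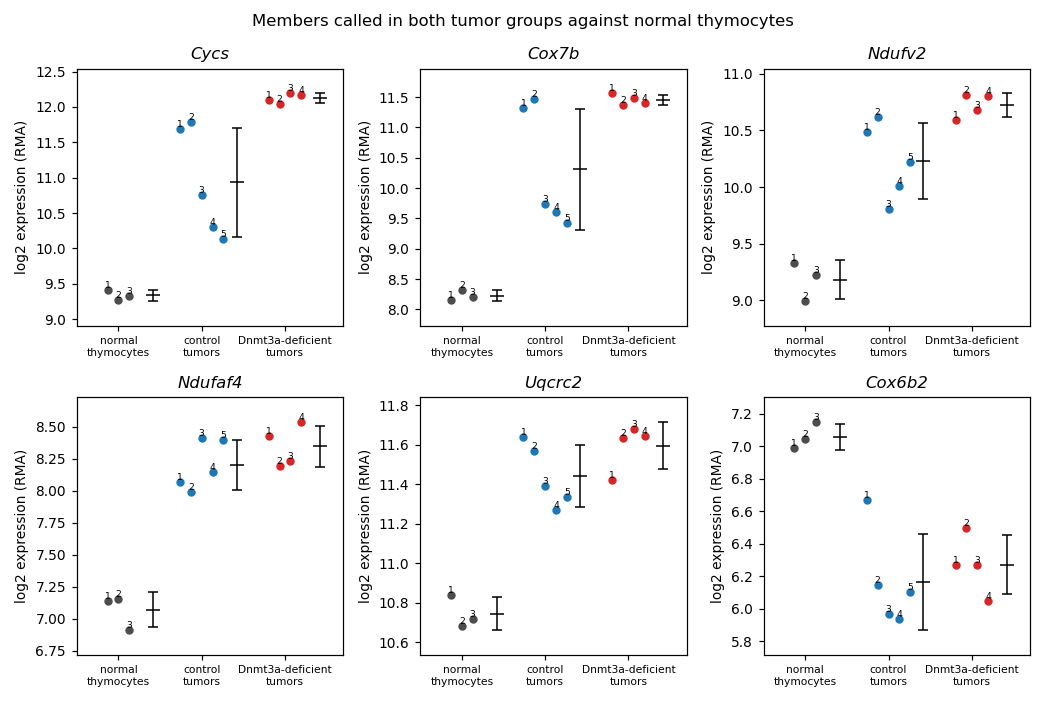
Log2 expression (RMA, vertical axis) of Cycs, Cox7b, Ndufv2, Ndufaf4, Uqcrc2 and Cox6b2 on each of the 12 arrays, by group (normal thymocytes n = 3, control tumors n = 5, Dnmt3a-deficient tumors n = 4), with replicate numbers beside the points and bars for the mean ± SD. Control tumors lie above normal thymocytes in Cycs and Cox7b, with control tumors 1 and 2 beside the deficient tumors, and below them in Cox6b2.

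The calls that were kept both without control tumors 1 and 2 and without control tumors 3, 4 and 5 were Cycs, Cox7b, Ndufaf4, Ndufaf5, Ndufaf6, Ndufv2, Uqcrc2 and Atp5pb for higher and Cox6b2 for lower. With each array left out in turn, 8 of the 15 calls held every time, and Atp5pb, Ndufa5, Ndufaf5, Ndufs1, Ndufv3, Sdha and Uqcrh were lost at least once (highest adjusted p 0.0566 to 0.164), most often without normal array 1 (5 calls) or 2 (6 calls). Atp5pb also missed the threshold after cyclic loess (adjusted p = 0.0581). Without control tumors 1 and 2, 16 members were higher (12.9% of all genes were) and 4 lower (12.5%), and 11 and 2 of these were shared with the calls on all arrays. Without control tumors 3, 4 and 5, 24 were higher (19.2% of all genes) and 15 lower (16.3%).

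The second comparison sets Dnmt3a-deficient tumors against the same normal thymocytes, so the arrays of normal thymocytes are shared with the first. Cytochrome c, Cox7b, the c-ring gene Atp5g1, the complex I subunits Ndufs4, Ndufs7, Ndufs8 and Ndufv2, and most of complex III were higher, and a smaller group that includes Atp5h, Atp5c1, Atp5e, Ndufb7, Ndufc1 and Cox6a1 was lower. In all, 34 of 90 members (37.8%) were higher by limma, against 18.7% of all genes, and 11 (12.2%) were lower, against 19.0%. Among the brighter 50% of genes the shares were 39.8% of members against 35.6% of genes for higher, and 20.8% of genes were lower there. The groups did not overlap in 37 members that were higher, against 23.0% of all genes, and in 19 that were lower, against 26.7%. At least a 2-fold difference was seen in 19 of the higher members and 1 of the lower, which is 21.1% and 1.11% of members, against 11.8% and 4.94% of all genes. Among the brighter 50% the shares were 21.7% and 1.20% of members against 22.4% and 8.24% of genes, so the share with such a rise was near the background. The 13 higher and 2 lower members of the first comparison were all called in the same direction here. The 2 comparisons share the normal arrays and the estimate of the spread, so this is not separate evidence. The share of all genes called in both was not counted. The median difference was 0.16 on the log2 scale, beside -0.10 over all genes and 0.20 over the brighter 50%. It was -0.01 after a second quantile normalization, where 23 members were higher and 18 lower, and -0.02 after cyclic loess, with 23 and 16. Of all genes, 15.4% were higher and 19.9% lower after the quantile step, and 16.6% and 16.0% after cyclic loess. Under each of these scalings 25.6% of members were higher, above the share of all genes. The share of lower members was near that of all genes.

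By complex, 6 of 8 members of complex III and 4 of 6 core subunits of complex I were higher and none lower. Complex II had 3 higher and 1 lower, complex V 5 higher and 3 lower of 17, complex IV 4 higher and 2 lower of 17, and the complex I accessory subunits 8 higher and 5 lower of 30. Median differences were 1.07 for the complex I core, 0.79 for complex III, 0.51 for complex II, 0.42 for the assembly factors, 0.07 for complex V, 0.06 for the accessory subunits and 0.02 for complex IV. Complexes IV and V held their largest rises beside falls in the same complex. Of the 45 calls, 30 held with each array left out in turn. The other 15 (Atp5c1, Atp5g2, Atp5j, Atp5pb, Ndufa2, Ndufa4l2, Ndufa5, Ndufa7, Ndufs1, Ndufs6, Ndufv3, Sdha, Sdhc, Sdhd and Uqcr10) were lost at least once, with highest adjusted p of 0.0514 to 0.160. Each single array ended 5 to 11 of them. These fits share their spread with the control tumors, which are not part of this comparison. With only control tumors 1 and 2 left out, all 15 passed, with limma adjusted p of 7.4e-05 (Ndufa7) to 0.0315 (Sdhd). After a second quantile normalization 11 calls were lost, all for higher (Atp5g2, Atp5j, Atp5pb, Ndufa10, Ndufa2, Ndufa5, Ndufa7, Ndufs1, Sdha, Sdhd and Uqcr10), and cyclic loess ended the same calls except Ndufa5, and also Sdhb and Ndufa4l2.

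**Figure D2:**
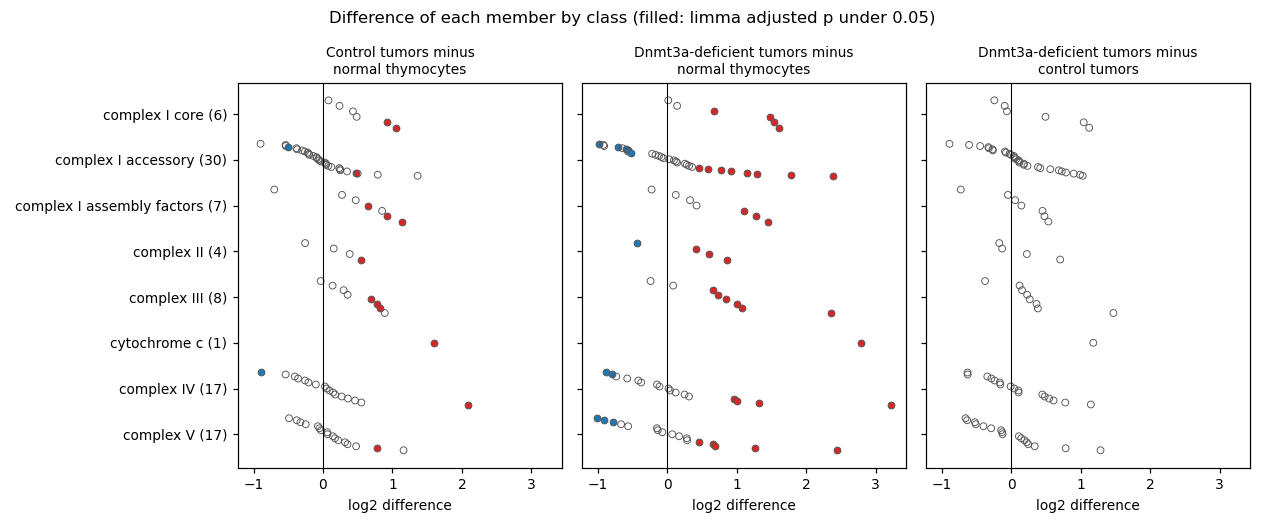
Log2 difference of each member (horizontal axis) by complex, with the number of members in brackets, in 1 panel per comparison. Filled points passed the limma test (red higher, blue lower) and open points did not. In Dnmt3a-deficient tumors minus normal thymocytes, complex III and the complex I core lie mostly above 0, while complexes IV and V and the accessory subunits spread on both sides.

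In the complex I core, Ndufs7 and Ndufs8 carry the iron-sulfur clusters nearest ubiquinone. Ndufs7 was at 10.43, 10.45 and 10.29 in normal thymocytes and at 11.72, 11.93, 11.90 and 11.91 in deficient tumors, a 2.78-fold difference (log2 1.47, SE 0.42, adjusted p = 0.0143). Ndufs8 went from 8.87, 8.76 and 8.45 to 9.95, 10.42, 10.25 and 10.58 (log2 1.61, SE 0.44, adjusted p = 0.0111). Neither gene overlaps between these groups. Ndufv2 was higher by 1.54 (adjusted p = 4.2e-05) and Ndufs1 by 0.67 (adjusted p = 0.0347), while Ndufv1 (0.14), which holds the NADH site, and Ndufs3 (0.02) did not pass.

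Among accessory subunits, Ndufs4, whose loss is a known cause of Leigh syndrome, moved most. It measured 7.51, 7.34 and 7.43 in normal thymocytes and 9.63, 9.90, 9.95 and 9.79 in deficient tumors, which is 5.24-fold (log2 2.39, SE 0.51, adjusted p = 0.00269). Ndufb9 (1.78, adjusted p = 0.00918), Ndufc2 (1.29, adjusted p = 0.00652) and Ndufa7 (1.15, adjusted p = 0.0356) followed, and Ndufb2 was 0.92 higher (adjusted p = 0.00180). Ndufb7, a membrane-arm subunit of the intermembrane face, was lower: 9.82, 9.92 and 9.81 against 8.60, 9.0, 8.97 and 8.90 (fell by 0.99, SE 0.23, adjusted p = 0.00479). Ndufc1 fell by 0.71 (adjusted p = 0.00174), Ndufs6 by 0.59 (adjusted p = 0.0325), Ndufa4l2, an isoform known to be induced by HIF1, by 0.56 (adjusted p = 0.0163) and Ndufv3 by 0.52 (adjusted p = 0.0249). The partners Ndufc1 and Ndufc2, subunits of the same membrane module, thus moved in opposite directions. Among assembly factors, Ndufaf6 (1.46), Ndufaf4 (1.28) and Ndufaf5 (1.10) were higher with adjusted p of 2.1e-04, 3.5e-05 and 3.5e-04, and the other 4 did not pass.

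All 4 genes of complex II, which are also the enzyme succinate dehydrogenase of the citric acid cycle, passed the test. The iron-sulfur subunit Sdhb went from 9.29, 9.42 and 9.18 to 10.07, 10.45, 9.90 and 10.21 (log2 0.86, SE 0.22, adjusted p = 0.00858). Sdhd, a membrane anchor, was higher by 0.61 (adjusted p = 0.0328) and Sdha by 0.42 (adjusted p = 0.0464), but the other anchor, Sdhc, fell by 0.43 (adjusted p = 0.0199). Sdhd rests on 3 of 4 deficient tumors: 10.39, 10.40 and 10.37, with 9.50 in deficient tumor 1, inside the normal range of 9.42 to 9.68.

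In complex III, Uqcr11, a small membrane subunit, was at 7.91, 7.88 and 7.45 in normal thymocytes and at 9.91, 10.19, 10.03 and 10.29 in deficient tumors, which is 5.13-fold (log2 2.36, SE 0.42, adjusted p = 7.3e-04). Uqcrb (1.08, adjusted p = 9.3e-04), Uqcrh (1.01, adjusted p = 0.00781), Uqcrc2 (0.85, adjusted p = 3.2e-04), Uqcrq (0.74, adjusted p = 0.00393) and Uqcr10 (0.66, adjusted p = 0.0106) were also higher. The core protein Uqcrc1 (0.09) and the Rieske iron-sulfur protein Uqcrfs1 (-0.24) did not pass. Cycs was 6.89-fold higher (log2 2.79, SE 0.34, adjusted p = 4.5e-05). Its 3 probe sets gave 2.79, 2.52 and 0.79, the last from a dim set with a mean of 5.69.

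Complex IV has tissue isoforms, and these were followed one by one. Cox7b was 9.37-fold higher in deficient tumors (log2 3.23, SE 0.44, adjusted p = 8.9e-05), while Cox7b2 stayed near 4.3 to 4.6 on all arrays and differed by 0.02. Cox8a, the ubiquitous form, went from 9.99, 9.99 and 9.86 to 11.34, 11.28, 11.42 and 11.08 (log2 1.33, SE 0.34, adjusted p = 0.00798), while Cox8b (-0.57) and Cox8c (-0.11) did not pass. Cox6b1 rose by 0.97 (adjusted p = 0.00513) and Cox6b2 fell by 0.79 (adjusted p = 0.00387). Cox6c rose by 1.01 (adjusted p = 0.00490). Cox6a1, the form found in most tissues, fell from 10.99, 10.88 and 10.57 to 9.93, 9.93, 10.12 and 9.75 (by 0.88, SE 0.22, adjusted p = 0.00638), and the muscle form Cox6a2 (0.04) did not pass. Neither did Cox4i1 (-0.37) and Cox4i2 (-0.42), nor Cox7a1 (0.12), Cox7a2 (0.32) and Cox7a2l (-0.73), although another probe set of Cox7a2l fell by 1.70 (adjusted p = 0.00205).

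ATP synthase has a catalytic head, a rotor with the c-ring, and a stalk. Of the 3 genes that encode the same c subunit, Atp5g1 was at 8.99, 9.16 and 9.14 in normal thymocytes and at 11.29, 11.53, 11.89 and 11.45 in deficient tumors, which is 5.45-fold (log2 2.45, SE 0.44, adjusted p = 8.2e-04). Its second probe set gave 2.21. Atp5g2 rose by 0.69 (adjusted p = 0.0232), and Atp5g3 (-0.07) did not pass. In the rotor stalk Atp5d, the delta subunit, rose by 1.26 (adjusted p = 0.0105), while the gamma subunit Atp5c1 fell by 0.91 (adjusted p = 0.0271) and the epsilon subunit Atp5e by 0.78 (adjusted p = 0.0114). These 3 subunits form one rotor stalk, and the values show 1 higher and 2 lower. In the peripheral stalk, Atp5pb (0.66, adjusted p = 0.0234) and Atp5j (0.46, adjusted p = 0.0148) rose. Atp5h, also of that stalk, was at 11.59, 11.52 and 11.43 in normal thymocytes and at 10.46, 10.64, 10.40 and 10.51 in deficient tumors (fell by 1.01, SE 0.19, adjusted p = 0.00102), and its other probe sets fell by 1.15 and 1.44. The head subunits Atp5a1 (-0.56, adjusted p = 0.0877) and Atp5b (0.28, adjusted p = 0.0754) did not pass.

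**Figure D3:**
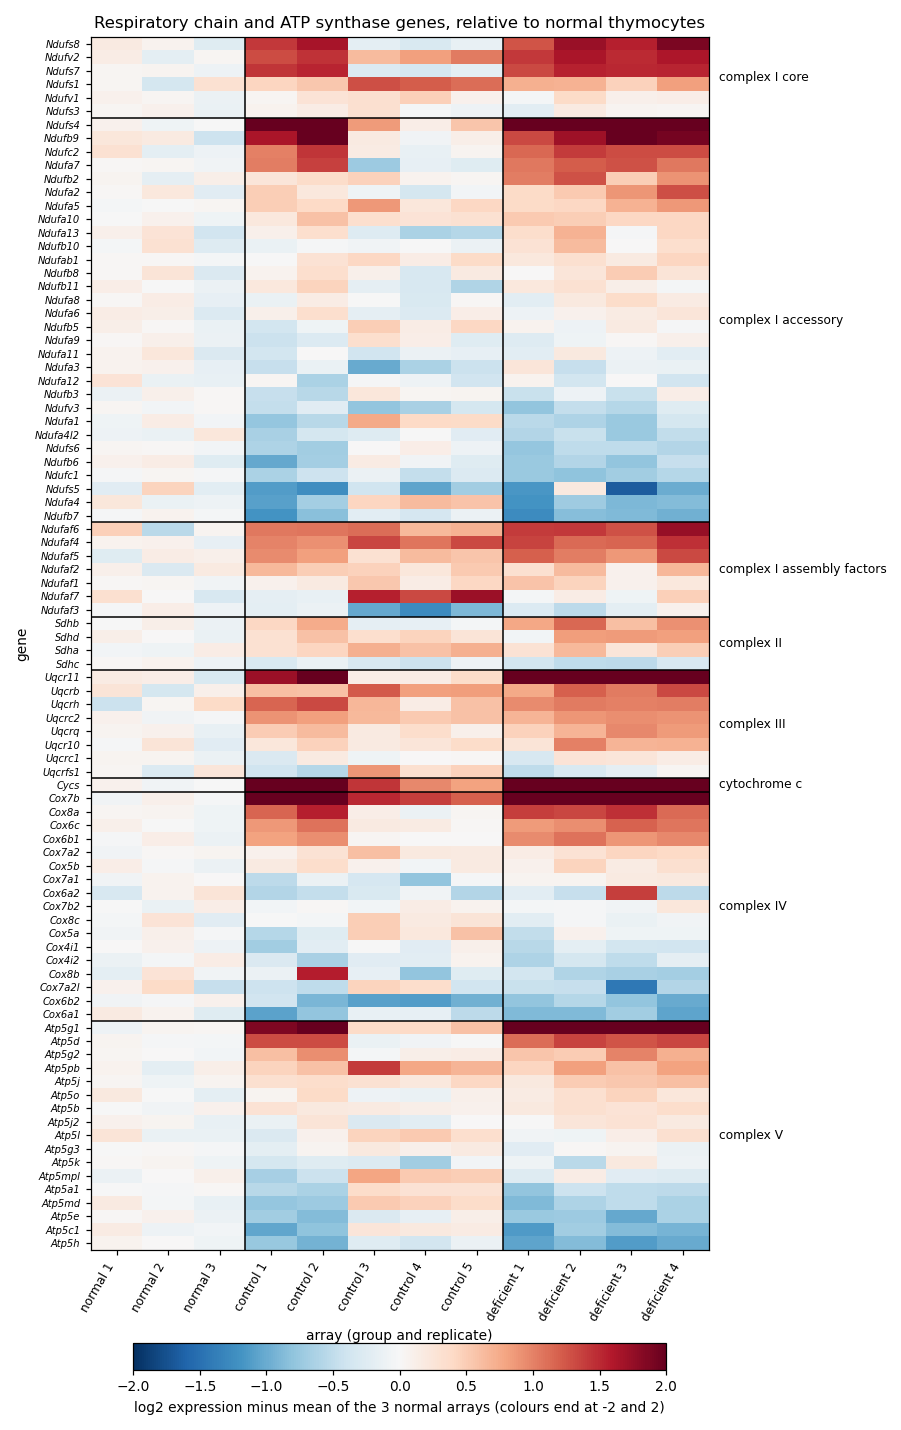
Log2 difference of each of the 90 members (rows, by complex) from its mean in normal thymocytes on each of the 12 arrays (columns), red above and blue below it, with colours that end at -2 and 2. Control tumors 1 and 2 resemble the Dnmt3a-deficient tumors in many rows, and control tumors 3, 4 and 5 resemble normal thymocytes in the same rows.

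Across probe sets, 18 members had more than 1. In deficient tumors against normal thymocytes, 25 of the 27 other sets differed in the same direction as the one used. Of the 10 called members with another set, 13 other sets were called the same way and 0 the opposite way. The other 2 sets differed in sign: Ndufa11 gave -0.08 from the set used and 0.91 (adjusted p = 0.0351) from another, and Atp5l gave 0.07 from the set used and -0.0008 from 1 of its others. Among members not called through the set used, another set was called for Ndufa11, for Cox5b (0.54, adjusted p = 0.0341), for Atp5md (-1.19, adjusted p = 0.0345) and for Cox7a2l (-1.70, adjusted p = 0.00205). For control tumors against normal thymocytes, sets differed in sign for Ndufa11 (-0.20 used, 0.27 other) and Ndufb11 (-0.09 used, 0.19 other). There the other set of Cox7a2l was called lower (-0.97, limma adjusted p = 0.0499), while the set used gave -0.10 and did not pass.

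The third comparison asks what loss of Dnmt3a changes among tumors. No member was called higher or lower in Dnmt3a-deficient than in control tumors by limma after adjustment (0 of 90 each), against 0.590% of all genes higher and 0.228% lower. Without adjustment, 26 members (28.9%) were higher and 9 lower at a p under 0.05, against 12.6% and 7.58% of all genes. Among the brighter 50% the shares were 28.9% and 9.64% of members against 20.9% and 7.51% of genes. Ndufb2, an accessory subunit, had the smallest adjusted p (0.69, SE 0.16, adjusted p = 0.0722), with 6.88, 7.01, 7.11, 6.71 and 6.68 in control and 7.67, 7.92, 7.13 and 7.54 in deficient tumors. Its groups do not overlap, and the same holds for Cycs (1.18, adjusted p = 0.0817), Uqcr11 (1.47, adjusted p = 0.0772), Ndufaf6 (0.53, adjusted p = 0.159), Cox7a1 (0.48, adjusted p = 0.122) and Ndufb10 (0.39, adjusted p = 0.176). These 6 of 90 compare with 3.80% of all genes, and 0 members lay without overlap in the other direction, against 2.35%.

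The control tumors were far from uniform in these genes. In 58 of 90 members (64.4%) control tumors 1 and 2 lay both above or both below the other control tumors. This share was near that of the brighter 50% of genes (59.6%), and it was 46.6% of all genes. In 20 of 90 members (22.2%) the means were also at least 1 apart on the log2 scale, against 13.0% of the brighter 50% of genes and 7.59% of all genes. In 13 of these 20 control tumors 1 and 2 were the higher ones (14.4% of members, against 10.4% of the brighter 50% and 6.03% of all genes). In 7 they were the lower (7.78%, against 2.59% and 1.56%). The genes with 1 and 2 higher include Ndufs4, Ndufs7, Ndufs8, Uqcr11, Cycs, Cox7b, Cox8a, Atp5d and Atp5g1. Ndufs7 was 11.82 and 11.92 in control tumors 1 and 2 and 10.12, 10.06 and 10.20 in the others, so the group mean of 10.82 ± 0.96 (SD, n = 5) lies where no array is. Atp5d showed the same pattern, at 12.50 and 12.51 against 11.06, 11.13 and 11.18.

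In the opposite direction, Atp5c1 was 10.72 and 10.97 in control tumors 1 and 2 and 12.01, 11.96 and 11.93 in the others, with 10.64 to 11.08 in deficient tumors. Ndufa4 measured 9.56 and 9.96 against 11.07, 11.27 and 11.21, with 9.44 to 9.92 in deficient tumors and 10.51 to 10.87 in normal thymocytes. Ndufaf7, an assembly factor of complex I, measured 7.09 and 7.11 against 8.81, 8.58 and 8.98, and here control tumors 3, 4 and 5 stood above all other arrays, which reached 7.74. Ndufa1, Atp5md, Atp5mpl and Uqcrfs1 are the remaining members in which 1 and 2 were lower.

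**Figure D4:**
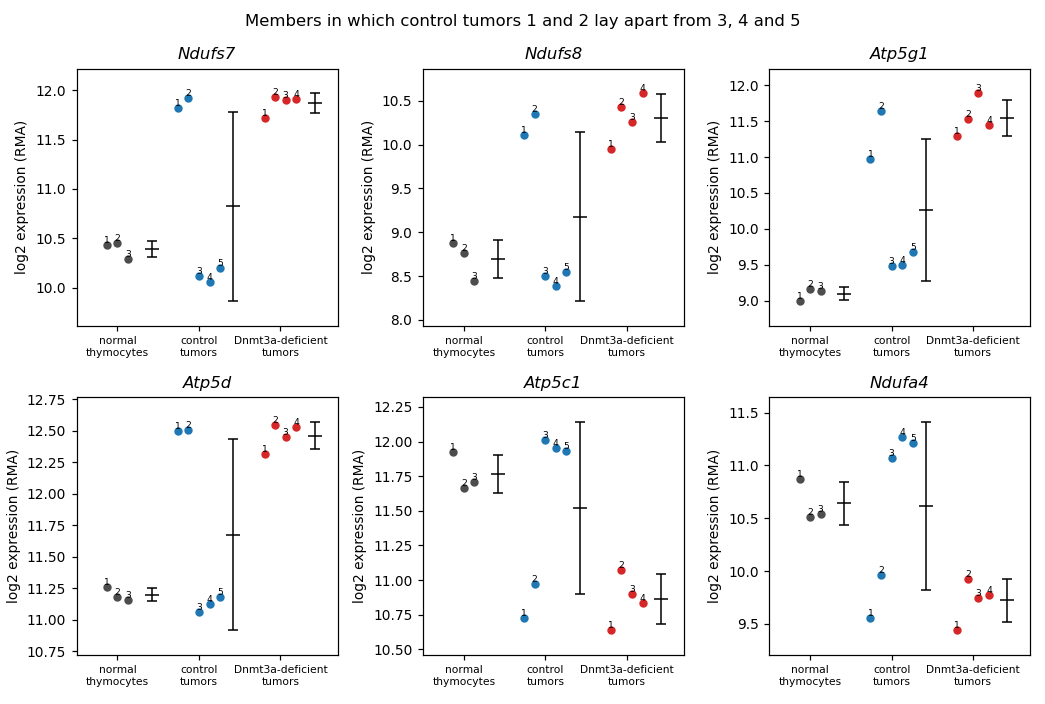
Log2 expression (RMA, vertical axis) of 6 members on each of the 12 arrays by group, with replicate numbers beside the points and bars for the mean ± SD (normal thymocytes n = 3, control tumors n = 5, Dnmt3a-deficient tumors n = 4). Control tumors 1 and 2 lie with the deficient tumors in all 6, above the others in Ndufs7, Ndufs8, Atp5g1 and Atp5d and below them in Atp5c1 and Ndufa4.

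The count for the third comparison therefore rests on which control tumors are used. Without control tumors 1 and 2, 26 members were higher in deficient tumors, against 16.1% of all genes, and 18 lower, against 9.24%, and the group then coincides with the difference in upper quartile and cannot be told apart from it. The differences were 2.14 for Uqcr11, 1.99 for Atp5g1, 1.87 for Cox7b and Ndufs4, 1.82 for Ndufs8, 1.74 for Ndufs7 and 1.72 for Cycs, and -1.46 for Ndufa4, -1.40 for Ndufaf7 and -1.11 for Atp5c1, all with adjusted p of 3.4e-04 or less. Leaving out control tumors 3, 4 and 5 leaves tumors of like upper quartile, but only control tumors 1 and 2 in their group. In that fit 0 members were higher and 0 lower, against 0.0880% and 0.337% of all genes. The differences were 0.46 for Uqcr11 (adjusted p = 0.414), 0.38 for Cycs (adjusted p = 0.301) and 0.06 for Cox7b (adjusted p = 0.944). With so few control arrays, a lack of calls does not show that the tumor groups are alike. Leaving out control tumor 1 alone gave 9 members higher and 2 lower, against 4.08% and 1.17% of all genes. Leaving out control tumor 2 alone gave 16 and 1, against 5.71% and 1.96% of all genes.

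Genes that build, supply or regulate the chain but lie outside the symbol rule were read from lists for the same pathway. Their counts are to be read against 13.0% higher and 11.3% lower of all genes in control tumors and 18.7% and 19.0% in deficient tumors, or 26.7% and 18.1%, and 35.6% and 20.8%, of the brighter 50%, to which most list genes belong. Nothing particular to a list is drawn from them. Of 20 measured assembly genes of complex IV, 4 were higher and 0 lower in control tumors, and 7 and 0 in deficient tumors. Lrpprc, which stabilises mitochondrial messenger RNAs, was higher by 2.20 (adjusted p = 9.7e-06) and 2.36 (adjusted p = 4.8e-06), and its partner Slirp by 1.62 and 2.28. Cox11, a copper chaperone, was higher by 1.16 and 1.81. Among 10 assembly genes of complexes II and III, 0 were higher and 1 lower in control tumors and 4 and 2 in deficient tumors, where Uqcc2, an assembly factor of complex III, was higher by 3.53 (adjusted p = 0.00423) and Uqcc3 fell by 1.84 (adjusted p = 3.6e-04). Uqcc2 measured 6.08 to 6.79 in normal thymocytes, 9.63, 9.77, 6.01, 6.45 and 6.32 in control tumors and 9.98, 10.01, 10.17 and 9.91 in deficient tumors. Control tumors 1 and 2 thus lay beside the deficient tumors and the other 3 beside normal thymocytes. Of 9 assembly genes of complex I outside the rule, 1 was higher and 1 lower in control tumors, and 4 and 2 in deficient tumors, with Nubpl at 0.82 and Acad9 at 0.67. Of 3 assembly genes of ATP synthase, 2 were higher in deficient tumors, the chaperones Atpaf1 (1.09) and Atpaf2 (0.47), and 0 were called in control tumors.

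Further subunits and carriers gave 1 higher of 4 in control and 3 of 4 in deficient tumors. Hccs, which attaches heme to cytochrome c, was higher in both (1.06 and 1.14, adjusted p = 2.4e-04 and 1.2e-04), and Cyc1, the cytochrome of complex III, by 0.85 (adjusted p = 0.00642) in deficient tumors. Atpif1, an inhibitor of ATP synthase, was 1.50 higher in deficient tumors (adjusted p = 0.00212). Of 16 citric acid cycle genes, 8 were higher and 1 lower in control tumors and 9 and 2 in deficient tumors, led by Suclg2 (1.98 and 2.18), Dld (2.01 and 1.91) and Idh3a (1.57 and 1.65). Of 7 other enzymes that feed electrons to ubiquinone, 3 were higher in each tumor group, among them Gpd2 of the glycerol phosphate shuttle (1.12 and 1.58). Of 11 genes of ubiquinone synthesis, 3 were higher and 0 lower in control and 5 and 1 in deficient tumors, with Coq3 at 1.12 and 1.68.

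Genes that copy and transcribe mitochondrial DNA gave 4 higher and 1 lower of 9 in control tumors and 5 and 0 in deficient tumors. The transcription factor Tfb2m was higher by 1.53 (adjusted p = 1.7e-05) and 1.84 (adjusted p = 3.8e-06), and Top1mt by 1.47 and 2.18. Of 10 regulators of mitochondrial biogenesis, 3 were higher and 1 lower in control tumors and 5 and 0 in deficient tumors. Gabpa, the DNA-binding subunit of GABP, was higher by 1.77 (adjusted p = 1.0e-05) and 2.01 (adjusted p = 3.4e-06), whereas Nrf1 (-0.56 and -0.40) did not pass. Gabpb1, the other subunit of GABP, fell by 0.53 in control tumors (adjusted p = 0.0424), and its -0.49 in deficient tumors did not pass (adjusted p = 0.0509).

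No gene of these lists was called between the tumor groups on all arrays, but this too rests on the control tumors used. Without control tumors 1 and 2, 16.1% of all genes were higher and 9.24% lower in deficient tumors, and the group coincides with the difference in upper quartile. Of 10 assembly genes of complexes II and III, 4 were then higher (Sdhaf3, Bcs1l, Uqcc2 and Lyrm7) and 1 lower (Uqcc3). Higher and lower were 4 and 1 of 20 assembly genes of complex IV, 1 and 0 of 9 of complex I, and 2 and 0 of 3 of complex V. Mitochondrial DNA expression gave 5 and 0 of 9, biogenesis regulators 2 and 0 of 10, and further subunits and carriers 2 and 0 of 4. The citric acid cycle gave 2 and 3 of 16, other electron donors 2 and 2 of 7, and ubiquinone synthesis 6 and 2 of 11. Without control tumors 3, 4 and 5, which leaves only control tumors 1 and 2 in that group, 0 genes of any list were called. The shares of all genes were 0.0880% higher and 0.337% lower. Against normal thymocytes, the control tumors without 1 and 2 had 12.9% of all genes higher and 12.5% lower. They gave 4 higher and 2 lower assembly genes of complex IV, 1 and 0 of complex I, 0 and 1 of complexes II and III and 0 and 0 of complex V. They gave 9 and 1 citric acid cycle genes, 5 and 1 genes of mitochondrial DNA expression and 3 and 2 of ubiquinone synthesis. They also gave 4 and 1 other electron donors, 3 and 1 biogenesis regulators and 1 and 0 further subunits and carriers. Their differences were then 2.27 for Lrpprc (adjusted p = 3.8e-05), 1.38 for Slirp (adjusted p = 2.4e-04), 2.07 for Suclg2 (adjusted p = 1.1e-05), 1.39 for Tfb2m (adjusted p = 6.4e-05) and 1.70 for Gabpa (adjusted p = 5.6e-05). Uqcc2 then differed by -0.23 (adjusted p = 0.437) from normal thymocytes.

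One isoform rested on a single array. Cox8b, the muscle and brown fat form of a complex IV subunit, measured 7.54 in control tumor 2 and 5.19 to 6.25 on the other 11 arrays. On that array adipocyte genes averaged 8.21, Adipoq was 8.20 and Fabp4 10.16, while Ucp1, the defining gene of brown fat, was 4.76 within a range of 4.73 to 5.18 over all arrays. Elovl3 and Otop1, of the brown adipocyte list, were also highest there, at 6.12 against 4.11 to 4.94 and at 8.34 against 6.08 to 7.09, and the mean of that list of 9 genes was 5.66 against 4.99 to 5.40 on the other arrays. Of the 11 skeletal muscle genes, Ckm (7.62), Acta1 (7.80), Atp2a1 (7.47) and Casq1 (5.94) were highest on the same array. Myh1, Myh4 and Mb were not highest there. Myh2 (4.81), Tnnt3 (7.74), Tnni2 (6.84) and Mylpf (6.25) lay below their means in normal thymocytes (5.21, 7.91, 6.89 and 6.62). The mean of that list of 11 genes was 6.54 on this array against 5.71 to 6.32 on the others. The part of other cells in the Cox8b value was not tested.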

How the data were processed

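Expression was measured on 12 single-channel arrays of thymus RNA, grouped by sample title. The authors deposited log2 values for each probe set. Expression Console (Affymetrix) and RMA are the tools that the submitters' processing notes name, without versions, and scan dates or separate normalization runs were not given in the sources used here. RMA corrects background, normalizes quantiles and summarises probes, so values are relative to an array's total signal and compress large differences. Of 23858 probe sets, 20870 had 1 gene symbol, 1453 several and 1535 none; only the first were used, 1 per gene (highest mean), which left 19309 genes. All 90 members matched the RefSeq gene table.

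With limma 3.58.1 (R 4.3.3), the means of the 3 groups were estimated over all genes, without further normalization (9 residual and 4.17 prior degrees of freedom), and p-values were Benjamini-Hochberg adjusted per comparison; calls needed an adjusted value below 0.05. "Brighter 50%" repeats the fit on the 50% of genes with the highest mean. Fits were tested on simulated data. Precision is limited by how many arrays there are.

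The members, classes and lists were chosen with earlier results of these data known. The text names, per comparison and class, up to 4 called members with the largest differences, or the 1 with the smallest p where none was called, with Cycs, the Sdh genes, the c-subunit genes, Atp5a1, Atp5b and the Cox isoforms always, and up to 3 called genes per list; others were named after their values were seen. Alternatives were other scalings, a filter on dim genes, the mean over probe sets, an intensity trend with robust variance, the replicate number as a block, only the 2 groups compared, and leaving out single arrays or sets of control tumors; that without control tumors 3, 4 and 5, and both sets for the pathway lists, were chosen after seeing the data.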

Additional observations from a re-analysis of the deposited data

Results flagged for a closer look

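In 180 combinations of a member and a tumor group, 9 held 1 array far from the others, where chance gives about 1 in 20. In deficient tumor 1, Sdhd was low at 9.50 against 10.37 to 10.40 in the other deficient tumors, Ndufs7 at 11.72 against 11.90 to 11.93 and Uqcrc2 at 11.42 against 11.64 to 11.68. In deficient tumor 3, Cox6a2 was high at 8.75 against 6.84 to 7.15 and Cox7a2l low at 7.82 against 8.67 to 8.82. Atp5mpl was high in deficient tumor 2 at 10.26 against 9.87 to 9.90, and Cox7b2 in deficient tumor 4 at 4.62 against 4.33 to 4.37. Among control tumors, Cox6b2 was high in control tumor 1 at 6.67 against 5.94 to 6.14, and Cox8b in control tumor 2 at 7.54 against 5.19 to 5.86. The call of Sdhd against normal thymocytes rests on the other 3 deficient tumors.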

How the results depend on the processing

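Percentages in brackets here are the share of all genes called in the same direction. The count of members higher in control tumors than in normal thymocytes (13) was 24 without control tumors 3, 4 and 5 (19.2%). With single arrays left out it was 8 to 16, with 8 without normal array 2 (9.82%) and 16 without control tumor 4 (13.2%). The count lower (2) was 8 after a second quantile normalization (14.7%) and 8 after cyclic loess (11.2%). It was 5 without the dimmest 50% of genes (18.1%) and 1 with an intensity trend and robust variance (11.1%). Leaving out control tumors 1 and 2 gave 4 (12.5%), leaving out 3 and 4 gave 6 (10.6%), and leaving out 3, 4 and 5 gave 15 (16.3%). With single arrays left out it was 1 to 4. It was 1 without normal array 1, 2 or 3 (8.05%, 6.74% and 8.67%) and 4 without control tumor 2 or 5 (10.2% and 12.2%). For deficient tumors against normal thymocytes, the higher count (34) was 27 to 32 with single arrays left out. It was 27 without normal array 2 (15.5%) or deficient tumor 4 (16.3%) and 32 without deficient tumor 3 (17.2%). The lower count (11) was 18 after a second quantile normalization (19.9%) and 19 with only the 2 groups fitted (23.2%). It was 19 without control tumors 1 and 2 (23.0%) and 18 without 3, 4 and 5 (23.6%). With single arrays left out it was 7 to 12, with 7 without normal array 1 (15.7%) or 2 (12.6%) and 12 without deficient tumor 2 (17.0%). Between tumor groups, the higher count (0) was 1 with each array centred (1.34%) and 26 without control tumors 1 and 2 (16.1%). With single arrays left out it was 0 to 16, with 16 without control tumor 2 (5.71%). The lower count (0) was 18 without control tumors 1 and 2 (9.24%). With single arrays left out it was 0 to 2, with 2 without control tumor 1 (1.17%). The control tumors left out change the spread shared by all groups; otherwise the cause was not tested.

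4 members that were not called on all arrays were called with the opposite sign in control tumors against normal thymocytes: Atp5md was 0.45 (adjusted p = 0.0365) and Ndufa4 0.54 (adjusted p = 0.0263) without control tumors 1 and 2, and Atp5mpl -0.55 (adjusted p = 0.0285) and Ndufa1 -0.66 (adjusted p = 0.00972) without 3, 4 and 5. With the replicate number as a block, 13 members were called higher and 3 lower in control tumors, against 13.6% and 10.3% of all genes. In deficient tumors 30 and 12 were called, against 18.6% and 17.3%, and between the tumor groups 0 and 0, against 0.290% and 0.249%. Over 10 pairs of arrays that share a number, deviations from the group means gave correlations of -0.13 to 0.34. The 0.34 was for control tumor 1 with deficient tumor 1, and the other pairs reached at most 0.09. The labels state no pairing, so the numbers were not taken as pairs. RMA values give no background signal, so no member can be placed above or below background; the 7 members outside the brighter 50% of genes are Cox6b2, Cox7a1, Cox7b2, Cox8b, Cox8c, Ndufa4l2 and Ndufaf5.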
